A study of Homo sapiens with 8 samples.

Results

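The TAM receptors (*TYRO3*, *AXL* and *MERTK*) and their ligands *GAS6* and *PROS1* were described in RNA-seq libraries of breast epithelial cells that overexpressed the long non-coding RNA (lncRNA) *MALINC1*. The 5 members were taken by gene symbol, with earlier results of these libraries known, so that their levels and fold changes are given as a description without p-values. Of the 13842 genes in the table, 4 were members, and *MERTK* was not analysed here. The libraries came from MCF10A, a non-tumorigenic breast epithelial line, and DCIS.COM, a line of the MCF10 series that models ductal carcinoma in situ. Both lines had been stably transduced with lentivirus, either the control vector pLOC-empty or pLOC-*MALINC1*, and selected with blasticidin, so the controls carried a vector and had been through selection too. Each of the 4 groups had 2 libraries, 8 in all. The labels do not say whether the 2 libraries of a group came from separate cultures or transductions, and p-values therefore measure the spread between these libraries, which may be technical. MCF10A was grown with epidermal growth factor, hydrocortisone, insulin and cholera toxin in addition to horse serum and DCIS.COM with horse serum alone, so the effects of line and medium cannot be told apart.

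TAM receptors are receptor tyrosine kinases that sense phosphatidylserine, a lipid shown on the surface of dying cells and of some living ones. The ligands bind this lipid through a domain of gamma-carboxylated glutamates (Gla), a modification that depends on vitamin K, and bind the receptor through their other end. *GAS6* encodes a ligand of all TAM receptors, whereas *PROS1* encodes protein S, an anticoagulant of plasma that activates TYRO3 and MERTK but not AXL. In breast cancer AXL is known for its link with mesenchymal features, migration and drug resistance, and MERTK for the uptake of apoptotic cells by macrophages.

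The reads counted on genes ranged from 20604377 to 37550457 per library. *MALINC1* itself, which checks the labels, was measured at 1.0 and 1.51 CPM (read counts scaled to the library size) in MCF10A with pLOC-empty, 13.2 and 11.8 with pLOC-*MALINC1*, 1.35 and 1.15 in DCIS.COM with pLOC-empty and 24.5 and 19.2 with pLOC-*MALINC1*. Its log2 fold changes were 3.27 (adjusted p = 3.97e-08) and 4.04 (adjusted p = 6.93e-09). All 11 epithelial markers were in the table. Their sums in MCF10A were 25684 to 26079 CPM with pLOC-empty and 31330 to 32083 CPM with pLOC-*MALINC1*. In DCIS.COM they were 7123 to 7219 CPM with pLOC-empty and 6911 to 7180 CPM with pLOC-*MALINC1*. The sums do not stand for each marker, since the markers went both ways. With pLOC-empty 4 were called higher and 5 lower in DCIS.COM, while 28.6% of all genes were called. The log2 differences of the 11 markers ran from -5.46 to 3.51 with a median of 0.19. With pLOC-*MALINC1* in MCF10A 2 of them were called higher and 1 lower, while 5.5% of all genes were called. Their log2 fold changes there ran from -1.01 to 3.04 with a median of 0.505. None was called with pLOC-*MALINC1* in DCIS.COM, where 4.53% of all genes were. Of the macrophage markers 3 of 10 were in the table (*CD14*, *CD68* and *CSF1R*), with sums of 37.6 to 38.6 CPM and 24.4 to 25.9 CPM in MCF10A and of 4.71 to 4.87 CPM and 8.22 to 8.42 CPM in DCIS.COM (the controls first). Of 8 fibroblast markers 1 was in the table, *COL1A1*, at 15.1 to 15.9 CPM and 6.61 to 7.38 CPM in MCF10A and 1.91 to 2.01 CPM and 1.51 to 1.60 CPM in DCIS.COM, and its fall in MCF10A was called (log2 fold change -1.14). Of 7 endothelial markers 1 was, *PECAM1*, at 0.974 to 1.03 CPM and 0.680 to 0.808 CPM in MCF10A and 6.06 to 7.21 CPM and 0.0874 to 0.177 CPM in DCIS.COM, where its fall was called (-5.07). *PECAM1* thus moved with *AXL* in DCIS.COM and *COL1A1* with *PROS1* in MCF10A, and the part of these markers or cell types in the results was not tested.

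The 250 bases upstream of the annotated starts are shown for *AXL*, which gave the widest fold range of levels in the family (*GAS6* had the widest range in CPM), and for the ligands *GAS6* and *PROS1*. The sequences are RefSeq promoters (build GRCh38.p14), located in GRCh37 by an exact and unique match. *AXL* spans 41725128 to 41767671 on the plus strand of chromosome 19 (GRCh37, the build hg19), and has 2 listed starts, with upstream windows at chr19:41724878-41725127 and chr19:41732410-41732659. The window of *GAS6* is chr13:114567050-114567299 and that of *PROS1* is chr3:93692741-93692990, both on the minus strand. Capitals mark matches on either strand to letters of Sp1/Sp3 (GGGCGG), of TEAD factors (GGAATG) and of the E-box that ZEB and Snail factors bind (CACCTG).
AXL start 1: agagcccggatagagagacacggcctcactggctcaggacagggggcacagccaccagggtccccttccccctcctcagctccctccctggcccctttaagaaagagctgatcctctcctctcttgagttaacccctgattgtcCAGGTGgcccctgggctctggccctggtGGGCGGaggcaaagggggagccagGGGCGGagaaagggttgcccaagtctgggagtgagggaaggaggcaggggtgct
AXL start 2: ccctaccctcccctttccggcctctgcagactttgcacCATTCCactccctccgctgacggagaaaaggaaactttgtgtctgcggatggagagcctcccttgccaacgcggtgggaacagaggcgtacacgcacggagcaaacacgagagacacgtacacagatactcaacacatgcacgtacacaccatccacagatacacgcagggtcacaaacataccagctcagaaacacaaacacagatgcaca
GAS6: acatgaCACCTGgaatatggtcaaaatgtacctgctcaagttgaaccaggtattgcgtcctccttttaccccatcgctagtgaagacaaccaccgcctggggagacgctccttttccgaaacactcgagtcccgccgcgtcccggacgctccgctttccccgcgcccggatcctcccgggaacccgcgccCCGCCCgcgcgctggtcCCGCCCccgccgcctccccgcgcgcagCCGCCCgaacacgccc
PROS1: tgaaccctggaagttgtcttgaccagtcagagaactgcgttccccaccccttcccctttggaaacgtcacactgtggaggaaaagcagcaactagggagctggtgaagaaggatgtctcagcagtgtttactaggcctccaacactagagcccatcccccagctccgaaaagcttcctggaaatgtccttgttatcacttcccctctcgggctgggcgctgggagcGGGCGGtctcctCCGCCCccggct
The first *AXL* window held an E-box 106 bases and Sp1/Sp3 letters 78 and 54 bases before the start, and the second held TEAD letters 212 bases before it. *GAS6* held an E-box at 244 bases and Sp1/Sp3 letters at 60, 43 and 16 bases, and *PROS1* held Sp1/Sp3 letters at 24 and 12 bases. No window of *AXL*, *GAS6*, *PROS1* or *TYRO3* held the AP-1 letters TGACTCA or TGAGTCA or the TATA letters TATAAA. For comparison, of 35116 promoters with the same 250 bases, 42.6% held Sp1/Sp3 letters, 17.5% the E-box, 11.9% TEAD letters, 10.7% TATA letters and 4.2% AP-1 letters. A match is a description of the letters and not a binding site.

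*AXL* was low in MCF10A and high in DCIS.COM with the control vector, and the levels of the 2 lines overlapped with pLOC-*MALINC1*. In MCF10A with pLOC-empty it was measured at 2.86 and 1.77 CPM, from 83 and 40 reads. With pLOC-*MALINC1* it was measured at 11.6 and 14.9 CPM, so that both libraries lay above both controls. In DCIS.COM it was measured at 57.8 and 56.2 CPM with pLOC-empty and at 13.1 and 14.3 CPM with pLOC-*MALINC1*, so that there both lay below both controls. The log2 fold change was 2.50 (standard error 0.18) in MCF10A, or 5.67-fold higher, and -2.05 (standard error 0.18) in DCIS.COM, or 4.14-fold lower. The 2 responses differed by -4.55 on the log2 scale (standard error 0.25). In bulk libraries, fewer cells that express a gene and less RNA of it per cell cannot be told apart.

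The order of *AXL* levels was DCIS.COM with pLOC-empty (57.0 ± 1.16 CPM, SD, n = 2), DCIS.COM with pLOC-*MALINC1* (13.7 ± 0.848), MCF10A with pLOC-*MALINC1* (13.2 ± 2.35) and MCF10A with pLOC-empty (2.32 ± 0.771). The 2 groups with pLOC-*MALINC1* overlapped and did not differ beyond their spread. Between the lines, the log2 difference (DCIS.COM minus MCF10A) was 4.62 (standard error 0.18) with pLOC-empty and 0.06 (standard error 0.18) with pLOC-*MALINC1*, a comparison that was added after the planned ones. These 2 differences rest on separate libraries, whereas each vector comparison shares its control libraries with the pLOC-empty comparison of the lines.

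*TYRO3*, a receptor that both ligands activate, moved against *AXL* and less. It lies on the plus strand of chromosome 15 from 41849873 to 41875787. In MCF10A it was measured at 39.1 and 40.1 CPM with pLOC-empty and at 32.6 and 31.6 CPM with pLOC-*MALINC1*, which gave a log2 fold change of -0.30 (standard error 0.053). In DCIS.COM it was measured at 22.5 and 22.9 CPM with pLOC-empty and at 31.9 and 33.9 CPM with pLOC-*MALINC1*, which gave a log2 fold change of 0.53 (standard error 0.053). The groups did not overlap in either line, and the responses differed by 0.84 (standard error 0.075). As with *AXL*, the difference between the lines was seen with pLOC-empty, at -0.80, while the pLOC-*MALINC1* libraries overlapped, with a difference of 0.04 (standard error 0.053).

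*GAS6*, the ligand of all TAM receptors, was high in MCF10A with either vector and low in DCIS.COM, where it was lower still with pLOC-*MALINC1*. The gene lies on the minus strand of chromosome 13 from 114523522 to 114567049. MCF10A gave 104.7 and 102.8 CPM with pLOC-empty and 100.9 and 106.7 CPM with pLOC-*MALINC1*, with overlapping groups whose means were both 103.8 CPM. DCIS.COM gave 21.5 and 21.4 CPM with pLOC-empty and 8.94 and 10.5 CPM with pLOC-*MALINC1*, which gave a log2 fold change of -1.14 (standard error 0.066). The responses differed by -1.14 (standard error 0.094). Unlike the receptors, *GAS6* differed more between the lines with pLOC-*MALINC1* (-3.41, or 10.6-fold lower in DCIS.COM) than with pLOC-empty (-2.27, or 4.83-fold lower).

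*PROS1*, the gene of protein S, had 4 separate levels. It lies on the minus strand of chromosome 3 from 93591895 to 93698847. In MCF10A it was measured at 37.7 and 38.7 CPM with pLOC-empty and at 15.3 and 14.5 CPM with pLOC-*MALINC1*, which gave a log2 fold change of -1.35 (standard error 0.092), or 2.55-fold lower. In DCIS.COM it was measured at 3.55 and 4.06 CPM with pLOC-empty and at 5.62 and 5.59 CPM with pLOC-*MALINC1*, which gave a log2 fold change of 0.55 (standard error 0.092), or 1.47-fold higher. The responses differed by 1.91 (standard error 0.13), with the sign of *TYRO3* and against that of *AXL*. Between the lines the difference was -3.31 with pLOC-empty and -1.40 with pLOC-*MALINC1* (standard error 0.092 for both).

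**Figure D1:**
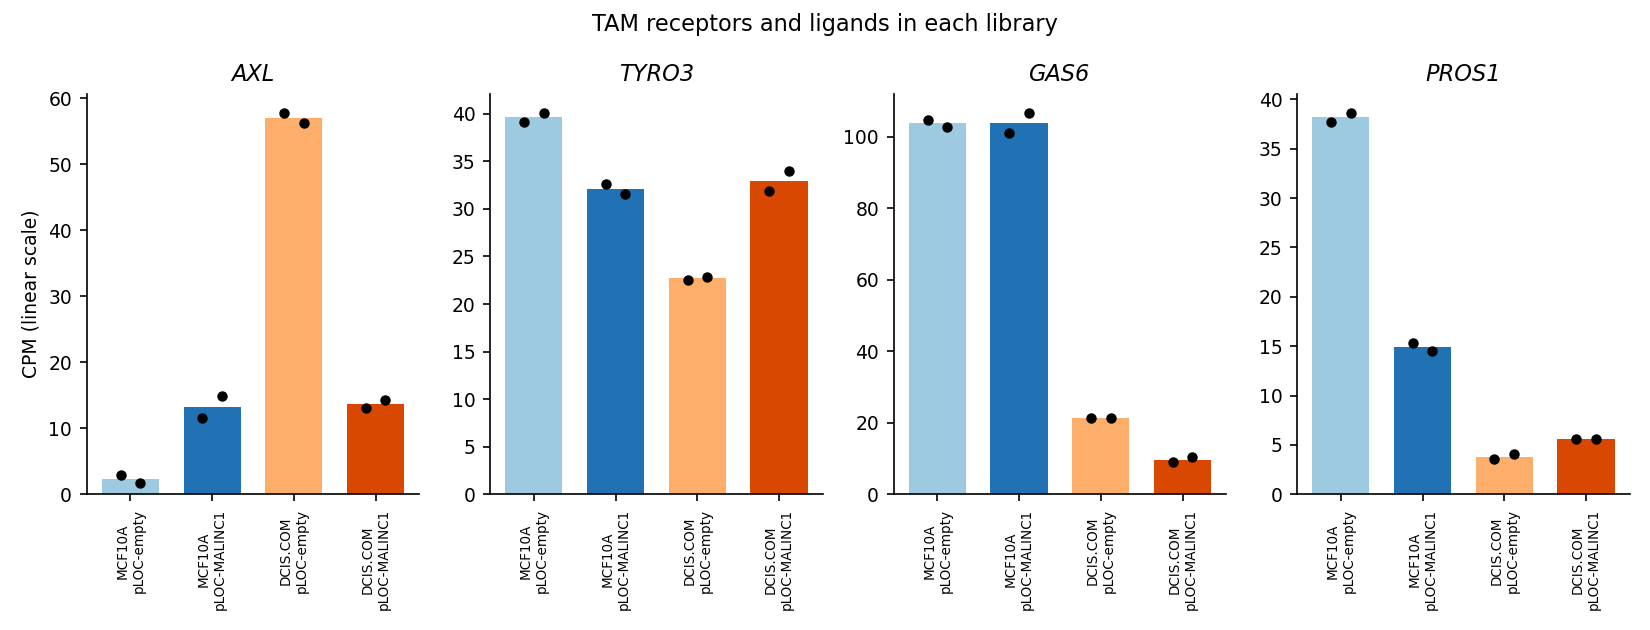
CPM of *AXL*, *TYRO3*, *GAS6* and *PROS1* on a linear scale from 0 for each gene, with points for the 2 libraries of a group and bars for their mean. *AXL* lies between 11.6 and 14.9 CPM in all pLOC-*MALINC1* libraries, while the pLOC-empty libraries of MCF10A lie below 3 CPM and those of DCIS.COM above 56 CPM.

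A differentially expressed gene (DEG) was one with an adjusted p below 0.01 in limma, a linear model fitted to all genes, and a change of over 2-fold. In MCF10A 761 genes (5.5%) were DEGs, among them *AXL* and *PROS1*. In DCIS.COM 627 genes (4.53%) were, among them *AXL* and *GAS6*. For the difference between the 2 responses 1273 genes (9.2%) were called, among them *AXL*, *GAS6* and *PROS1*, and these 3 were also called between the lines with pLOC-empty, as were 3959 genes (28.6%). With pLOC-*MALINC1* 3686 genes (26.6%) were called between the lines, among them *GAS6* and *PROS1*. *TYRO3* was not called in any comparison, since its changes were under 2-fold. As the members were chosen on these libraries, nothing is read from their share of the calls. Without the limit on fold, 5485 genes (39.6%) in MCF10A and 4592 (33.2%) in DCIS.COM had an adjusted p below 0.01, so that a gene not called can still have differed by less than 2-fold.

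**Figure D2:**
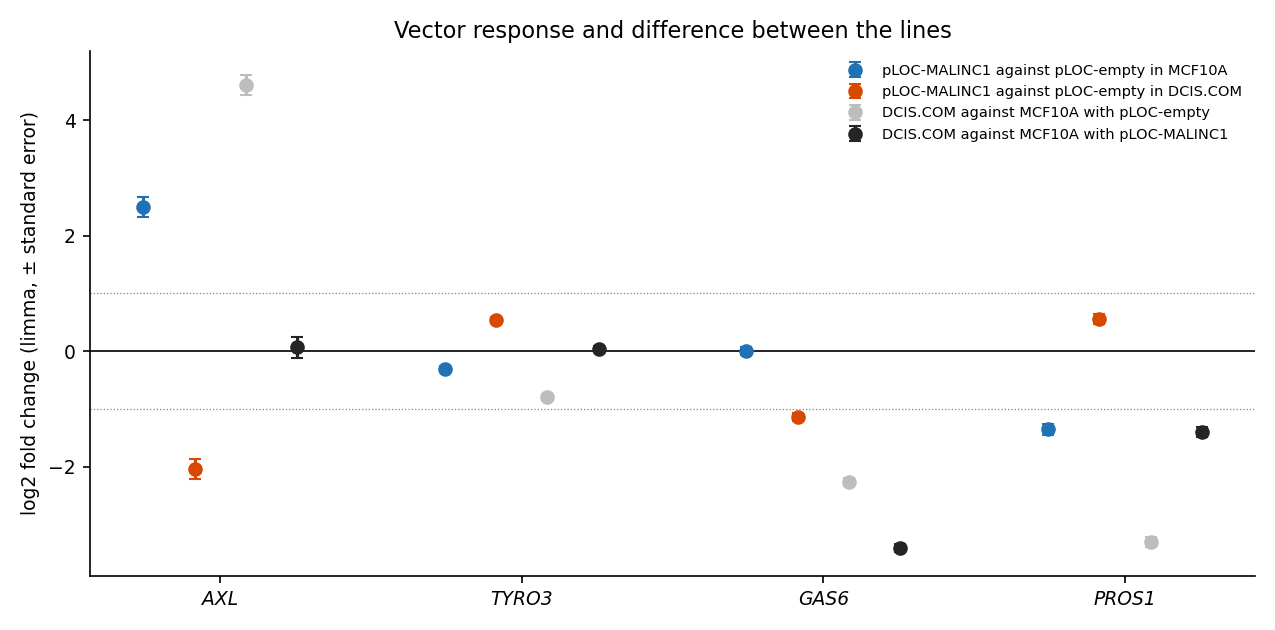
Log2 fold changes of the 4 measured members with their limma standard errors, for pLOC-*MALINC1* against pLOC-empty in MCF10A (blue) and DCIS.COM (orange) and for DCIS.COM against MCF10A with pLOC-empty (grey) and pLOC-*MALINC1* (black), with dotted lines at a 2-fold change. The black points of *AXL* (0.06) and *TYRO3* (0.04) lie near 0, whereas those of *GAS6* (-3.41) and *PROS1* (-1.40) do not.

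Genes can be compared with each other only per length, for which CPM were divided by the length of the MANE Select transcript (4717 bases for *AXL*, 8032 for *TYRO3*, 2508 for *GAS6* and 3372 for *PROS1*). On this scale *AXL* made up 11.1% and 6.99% of the summed *AXL* and *TYRO3* levels in MCF10A with pLOC-empty and 37.7% and 44.5% with pLOC-*MALINC1*. In DCIS.COM it made up 81.4% and 80.7% with pLOC-empty and 41.2% and 41.8% with pLOC-*MALINC1*. *TYRO3* was thus the higher of the 2 measured receptors in all libraries but the controls of DCIS.COM. The summed receptor level was 5.37 to 7.26 CPM per kb in the other groups and 14.8 and 15.1 CPM per kb in those controls.

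*GAS6* was the higher ligand in every library by this measure. Its share of the summed *GAS6* and *PROS1* levels was 78.9% and 78.2% in MCF10A with pLOC-empty, 89.9% and 90.8% with pLOC-*MALINC1*, 89.1% and 87.6% in DCIS.COM with pLOC-empty and 68.1% and 71.6% with pLOC-*MALINC1*. The share was therefore higher with pLOC-*MALINC1* in MCF10A, where *PROS1* was lower, and lower in DCIS.COM, where *GAS6* was lower. The summed ligand level was 52.5 to 52.9 CPM per kb in MCF10A with pLOC-empty, 44.8 to 46.9 with pLOC-*MALINC1*, 9.61 to 9.73 in DCIS.COM with pLOC-empty and 5.23 to 5.84 with pLOC-*MALINC1*. With the merged exons of all annotated transcripts as the length, an alternative chosen after seeing the data, the *AXL* share ranged from 8.48% in MCF10A to 84.3% in DCIS.COM controls and the *GAS6* share from 58.2% to 86.6%. The order of the group means was the same by either length for both shares.

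**Figure D3:**
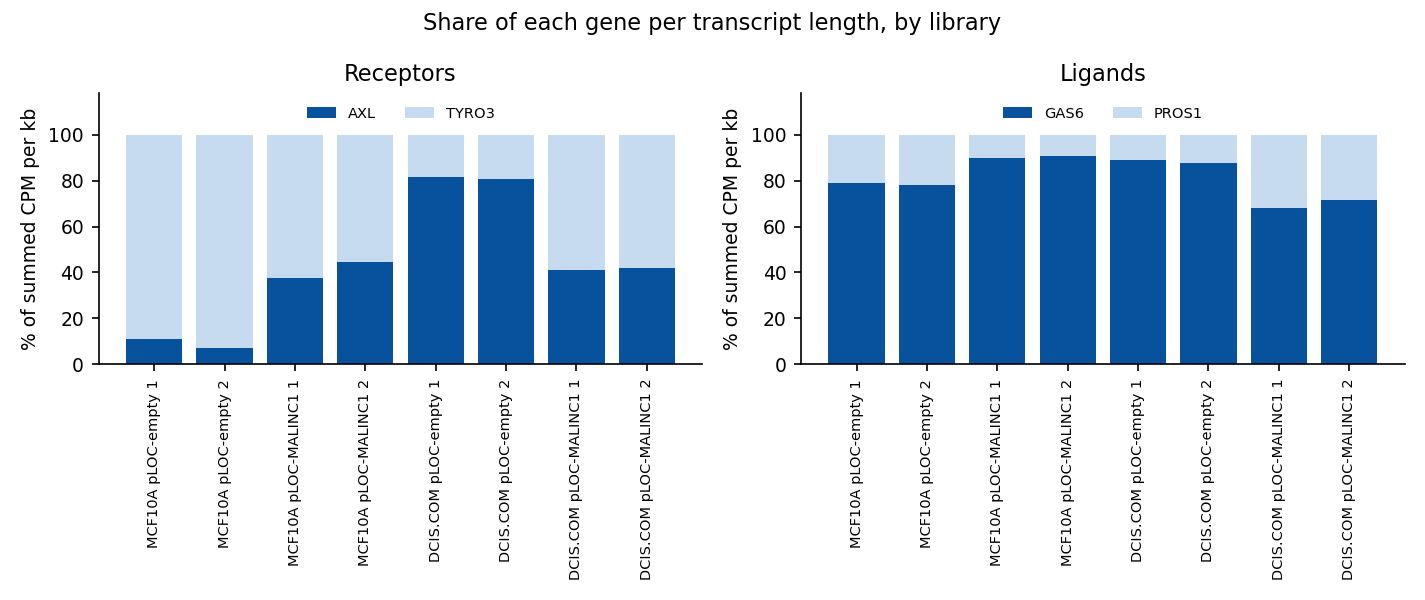
Share of *AXL* in the summed *AXL* and *TYRO3* levels (left) and of *GAS6* in the summed *GAS6* and *PROS1* levels (right), in percent of CPM per kb of MANE Select transcript, with a stacked bar for each of the 8 libraries. *AXL* runs from 6.99% in an MCF10A control to 81.4% in a DCIS.COM control, and lies between 37.7% and 44.5% in the pLOC-*MALINC1* libraries of both lines.

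Reads of neighbouring and related genes can enter these counts, since the strand setting of the counting is not given in the sources used here. *AXL* shares 67 exon bases with an antisense lncRNA, ENSG00000269652, and *GAS6* shares 421 with the antisense lncRNA *GAS6-AS1*, so that reads from these stretches cannot be told apart without strand. Of the 76-base stretches of their transcripts, as long as a read, 0 of *AXL* and *GAS6*, 0.655% of *TYRO3* and 2.21% of *PROS1* also occur in other genes, among them the pseudogenes *TYRO3P* and *PROS2P*. Neighbours of *AXL* and *GAS6* were picked by position after the data had been seen. *HNRNPUL1*, downstream of *AXL*, had a fold change of -0.05 on the log2 scale in MCF10A and of 0.22 in DCIS.COM, both under 2-fold. *GAS6-DT*, the divergent lncRNA at the *GAS6* start, was at 0.573 to 2.21 CPM and had -0.77 and 0.32 (adjusted p = 0.0140 and 0.286). *TMEM255B*, which lies beyond the other end of *GAS6*, rose in MCF10A from 0.345 and 0.133 CPM to 1.51 and 1.13 CPM and fell in DCIS.COM from 1.45 and 1.48 CPM to 0.350 and 0.532 CPM (log2 fold changes 2.24 and -1.61, adjusted p = 0.000127 and 0.00180). Its calls rest on few reads: in MCF10A the adjusted p was 0.0172 with the MCF10A libraries fitted alone, and in DCIS.COM it was 0.0148 without pLOC-empty replicate 1, 0.0174 without pLOC-empty replicate 2 and 0.0254 without pLOC-*MALINC1* replicate 1.

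Among 58 listed receptor tyrosine kinases 32 were in the table. Of all 13842 genes, 347 were called lower with pLOC-*MALINC1* in MCF10A and 427 in DCIS.COM. Beside *AXL* and *TYRO3*, which were chosen on these libraries, 3 of the other 30 kinases were called lower with pLOC-*MALINC1* in each line. In MCF10A the list had a median log2 fold change of -0.11 and in DCIS.COM one of 0.03, while the medians over all genes were 0.00 and 0.01. In MCF10A these were *FGFR1*, a receptor of fibroblast growth factors (log2 fold change -1.38, adjusted p = 9.11e-09), *ROS1*, an orphan kinase for much of its history and an oncogene when fused (-1.28, adjusted p = 1.03e-08), and *CSF1R*, the receptor of macrophage colony-stimulating factor (-1.01, adjusted p = 0.000499). The call of *CSF1R* sits at the 2-fold limit and was lost at -0.99 without pLOC-empty replicate 1 and at -0.97 without pLOC-*MALINC1* replicate 1. In DCIS.COM they were *ROS1*, which fell from 27.0 and 28.4 CPM to 1.08 and 0.975 CPM (-4.66, adjusted p = 7.53e-14), *NTRK2*, a neurotrophin receptor, from 33.6 and 35.9 CPM to 4.43 and 3.28 CPM (-3.16, adjusted p = 1.49e-06) and *EPHA3*, an ephrin receptor, from 2.01 and 2.29 CPM to 0.320 and 0.296 CPM (-2.55, adjusted p = 2.35e-05). *FGFR2* was measured at 30.2 and 29.3 CPM in DCIS.COM with pLOC-empty and at 68.7 and 76.6 CPM with pLOC-*MALINC1*, with an adjusted p of 0.0233 beside one of 0.000639 with the DCIS.COM libraries fitted alone.

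The difference between the responses was called for 9.2% of all genes. Among the kinases, 1 was called higher in DCIS.COM than in MCF10A (*FGFR1*, 1.27, adjusted p = 3.99e-07) and 4 lower (*AXL*, *NTRK2*, *ROS1* and *EPHA3*). Between the lines with pLOC-empty, where 28.6% of all genes were called, 11 kinases were called higher and 6 lower in DCIS.COM. Those with the widest differences were *FGFR2*, *NTRK2*, *EPHB1* and *FGFR4*, which in the controls of MCF10A had at most 5 reads in a library and in those of DCIS.COM 30.2 and 29.3, 33.6 and 35.9, 5.41 and 7.30, and 4.38 and 4.77 CPM respectively. Ranked per kb among the 32 kinases, *AXL* stood at 25 in MCF10A with pLOC-empty, 20 with pLOC-*MALINC1*, 10 in DCIS.COM with pLOC-empty and 19 with pLOC-*MALINC1*. *TYRO3* stood at 16, 15, 21 and 17.

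**Figure D4:**
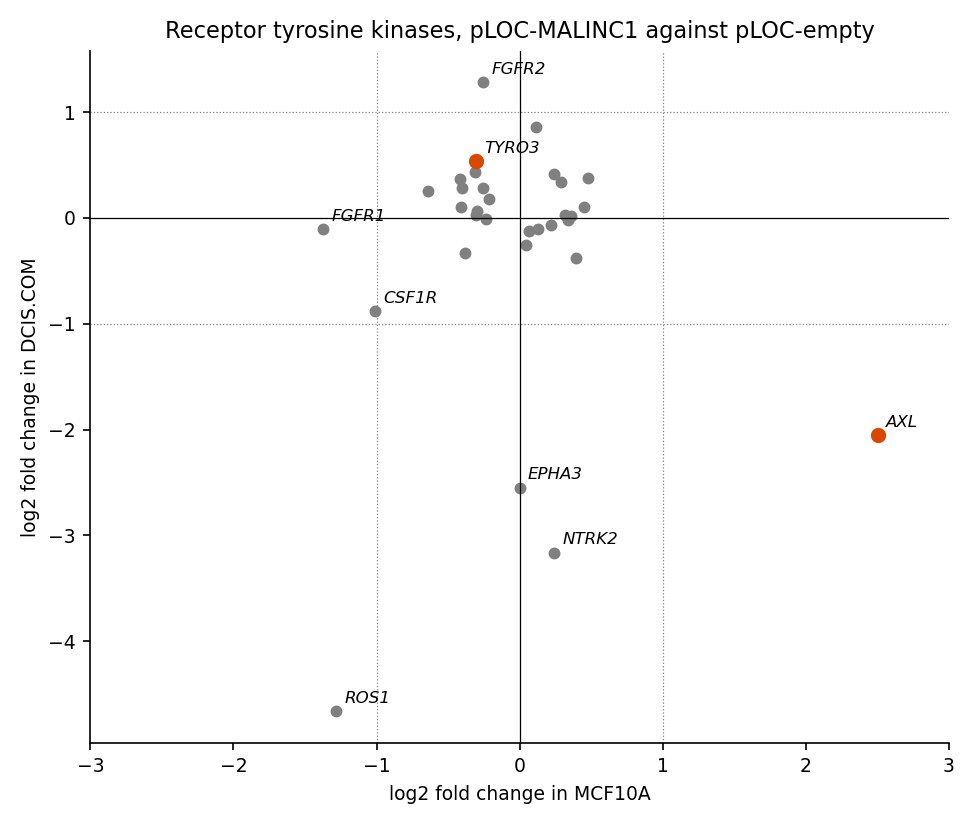
Log2 fold changes of the 32 measured receptor tyrosine kinases with pLOC-*MALINC1* in MCF10A (x axis) and DCIS.COM (y axis), with dotted lines at a 2-fold change and the TAM receptors in orange. *AXL* lies at 2.50 and -2.05, and *TYRO3* at -0.30 and 0.53.

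The ligands carry Gla domains, and of 18 listed genes of the vitamin K cycle and of Gla proteins 11 were measured. Beside *PROS1* in MCF10A and *GAS6* in DCIS.COM, none of the other 9 was called with *MALINC1*, while 5.5% and 4.53% of all genes were called (median log2 fold changes -0.13 and 0.15 over these 9, against 0.00 and 0.01 over all genes). Between the lines with pLOC-empty, where 28.6% of all genes were called, 2 were called higher and 4 lower, *GAS6* and *PROS1* included. *MGP*, an inhibitor of calcification, was measured at 1.17 and 2.08 CPM in MCF10A and at 761.6 and 828.2 CPM in DCIS.COM (log2 difference 8.92, adjusted p = 4.12e-13), and *PRRG4*, a membrane Gla protein, was lower in DCIS.COM (-1.43, adjusted p = 1.88e-11).

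Of 8 listed partners of protein S and alternative TAM ligands 4 were measured. *PROCR*, the receptor of protein C, for which protein S is a cofactor, rose in MCF10A from 9.76 and 10.9 CPM to 21.1 and 22.7 CPM (log2 fold change 1.08, adjusted p = 8.62e-07), a call at the 2-fold limit that was lost at 0.9969 without pLOC-empty replicate 1. It was the only call of the list in MCF10A, where 5.5% of all genes were called. None was called in DCIS.COM, where 4.53% of all genes were. Between the lines with pLOC-empty, where 28.6% of all genes were called, 3 were called lower in DCIS.COM and none higher. These were *LGALS3*, a galectin that can bind MERTK (-1.23, adjusted p = 6.54e-11), *TFPI*, an anticoagulant that protein S assists (-2.50, adjusted p = 5.61e-13), and *THBD*, which was measured at 4.79 and 4.96 CPM in MCF10A and had 1 and 0 reads in DCIS.COM. In MCF10A with pLOC-*MALINC1* *THBD* was measured at 9.42 and 10.4 CPM (log2 fold change 1.01). Its adjusted p there was 0.0269, beside one of 0.00405 with the MCF10A libraries fitted alone.

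TAM receptors are shed by ADAM proteases and then cut by gamma-secretase, and all 11 listed genes of these steps were measured. None was called in MCF10A, where 5.5% of all genes were called with pLOC-*MALINC1*. In DCIS.COM, where 4.53% of all genes were called, the only call was *TIMP3*, an inhibitor of ADAM and matrix metalloproteinases. It fell there from 887.9 and 934.4 CPM to 97.6 and 92.4 CPM (log2 fold change -3.26, adjusted p = 7.53e-14). In MCF10A it was measured at 78.3 and 74.0 CPM with pLOC-empty and at 106.3 and 112.8 CPM with pLOC-*MALINC1*, and the responses differed by -3.78 (adjusted p = 1.33e-12). Between the lines with pLOC-empty, where 28.6% of all genes were called, 2 of the 11 were called higher in DCIS.COM and 2 lower. *TIMP3* (3.58, adjusted p = 4.66e-15) and *RHBDF2*, a partner of ADAM17 (1.05, adjusted p = 6.76e-08), were higher. Among the lower was the gamma-secretase gene *APH1B* (-1.31, adjusted p = 1.42e-07). The median of the list was -0.07 in the former line and -0.03 in the latter with *MALINC1*.

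Of 38 listed proximal signaling partners 37 were measured, with a median change of 0.09 in MCF10A and one of -0.10 in DCIS.COM. *SRC*, a tyrosine kinase that couples to many receptors, rose in MCF10A from 18.2 and 19.9 CPM to 49.4 and 48.7 CPM (log2 fold change 1.36, adjusted p = 2.24e-09). *VAV3*, an exchange factor of small GTPases, rose there by 1.16 (adjusted p = 2.59e-05), a call that was lost at 0.90 without pLOC-empty replicate 2. In DCIS.COM the only call was *SOCS3*, a feedback inhibitor of cytokine signaling, which fell from 4.43 and 3.53 CPM to 1.22 and 1.06 CPM (-1.73, adjusted p = 5.32e-06). The responses of *SOCS3* and *VAV3* differed between the lines by -2.67 (adjusted p = 2.32e-06) and -1.94 (adjusted p = 7.03e-06). Between the lines with pLOC-empty, where 28.6% of all genes were called, 3 were called higher in DCIS.COM and 5 lower. Among them were *UBASH3B* (1.94, adjusted p = 5.99e-14), a phosphatase, and *CBLB* (-1.88, adjusted p = 4.79e-08), a ubiquitin ligase of receptor kinases.

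Phosphatidylserine exposure and the uptake of dying cells were covered by 27 listed genes, of which 20 were measured. Of all genes, 5.5% were called in MCF10A, 4.53% in DCIS.COM and 9.2% for the difference between the responses. The only call within a line was *ITGB3*, an integrin subunit, which fell in MCF10A from 1.45 and 1.46 CPM to 0.307 and 0.453 CPM (log2 fold change -1.78, adjusted p = 9.46e-06). For the difference between the responses *ITGB3* (1.42, adjusted p = 0.000996) and the lipid flippase gene *ATP8A1* (1.34, adjusted p = 0.00200) were called higher in DCIS.COM and the engulfment adaptor gene *GULP1* lower (-1.10, adjusted p = 0.000448). Of these, the call of *ATP8A1* was lost at an adjusted p of 0.0123 without DCIS.COM pLOC-*MALINC1* replicate 2. With pLOC-empty, where 28.6% of all genes were called between the lines, 6 genes were called higher and 2 lower in DCIS.COM. The widest was *CX3CL1*, a chemokine that dying cells can release, at 0 reads in both MCF10A libraries and 27.5 and 28.0 CPM in DCIS.COM.

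All 25 listed factors linked to *AXL* transcription were measured, with a median change of -0.13 in MCF10A and one of 0.08 in DCIS.COM. The medians over all genes were 0.00 and 0.01. In MCF10A 2 factors were called higher and 1 lower, while 5.5% of all genes were called. In DCIS.COM 2 were called lower, while 4.53% of all genes were called. Among AP-1 subunits *FOSL1* and *FOS* were called higher in MCF10A, and the repressor *ZEB2* fell. *FOSL1* was measured at 7.83 and 7.70 CPM with pLOC-empty and at 25.7 and 27.2 CPM with pLOC-*MALINC1* (log2 fold change 1.76, adjusted p = 1.77e-08), and *FOS* had a log2 fold change of 1.63 (adjusted p = 8.70e-07). Other AP-1 subunits went the other way there by under 2-fold, with log2 fold changes of -0.91 for *JUN* (adjusted p = 4.18e-07) and -0.84 for *FOSL2* (adjusted p = 5.81e-08). *ZEB2* had -1.50 (adjusted p = 0.00172), a call that was lost at an adjusted p of 0.0168 without pLOC-empty replicate 1, 0.0120 without pLOC-empty replicate 2 and 0.0202 without pLOC-*MALINC1* replicate 1. In DCIS.COM the AP-1 subunit *FOSL2* fell from 66.2 and 65.7 CPM to 14.5 and 15.6 CPM (-2.12, adjusted p = 1.64e-11), and *SNAI2*, a repressor of epithelial genes, fell from 16.1 and 16.2 CPM to 7.72 and 8.37 CPM (-1.004, adjusted p = 2.20e-07). In this line the log2 fold change was 0.59 for *JUN* (adjusted p = 2.13e-05) and 0.53 for *FOSL1* (adjusted p = 0.000498), both under 2-fold. The call of *SNAI2* was lost at -0.9995 without pLOC-empty replicate 2 and at -0.95 without pLOC-*MALINC1* replicate 1.

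For the difference between the responses 2 of these 25 factors were called higher in DCIS.COM than in MCF10A and 4 lower, while 9.2% of all genes were called. *FOS* (-1.88, adjusted p = 5.78e-06), *ETS1* (-1.48, adjusted p = 1.15e-09), *FOSL2* (-1.28, adjusted p = 2.63e-08) and *FOSL1* (-1.23, adjusted p = 8.87e-06) had the sign of *AXL* for this difference, and *JUN* (1.499, adjusted p = 1.16e-07) and *ZEB2* (1.95, adjusted p = 0.00318) the opposite one. Within the lines *FOSL2* was lower in both (-0.84 in MCF10A and -2.12 in DCIS.COM) and *FOSL1* higher in both (1.76 and 0.53). Neither thus changed direction between the lines as *AXL* did. *ETS1* did so, with 0.61 in the former line and -0.87 in the latter, each under 2-fold. *FOS* had the same signs (1.63 and -0.25), but its fall was not called. *JUN* (-0.91 and 0.59) and *ZEB2* (-1.50 and 0.46) changed in the reverse directions, the rise of *ZEB2* on at most 3 reads per library. The *ZEB2* call was lost at adjusted p values of 0.0149 and 0.0115 without MCF10A pLOC-empty replicate 1 or 2, 0.0171 without MCF10A pLOC-*MALINC1* replicate 1, 0.0117 without DCIS.COM pLOC-empty replicate 1 and 0.0150 without DCIS.COM pLOC-*MALINC1* replicate 1. Between the lines with pLOC-empty, where 28.6% of all genes were called, 3 of the 25 factors were called higher and 9 lower in DCIS.COM. *WWTR1*, the coactivator TAZ, was higher (2.63, adjusted p = 2.75e-14), while *JUN* was measured at 170.9 and 160.3 CPM in MCF10A and at 8.96 and 7.88 CPM in DCIS.COM (-4.29, adjusted p = 3.60e-14) and *ZEB1* was lower (-2.50, adjusted p = 1.52e-07). *ZEB2* had 0 and 1 reads in the DCIS.COM controls and 165 and 119 in those of MCF10A.

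The genes whose profile was closest to a member were found over the 8 libraries among 13792 genes, by the Euclidean distance between log2 CPM centred on their mean. For *AXL* these were *SLC1A3*, a glutamate transporter (distance 1.15), *OSR1* (1.15), *IL7R*, a receptor of interleukin 7 (1.24), *HBEGF*, a ligand of the EGF receptor (1.32), and the lncRNA *LY6E-DT* (1.45). The *AXL* values of the 2 control libraries of MCF10A were 0.671 apart. That gap lies between 2 libraries, whereas a distance runs over all 8, so it is no yardstick for the distances. *SLC1A3* was measured at a mean of 3.003 and 15.5 CPM in MCF10A and 38.8 and 11.9 CPM in DCIS.COM, with pLOC-empty and pLOC-*MALINC1* respectively. The nearest mirror images of *AXL* were *MYPN*, which encodes a sarcomere protein (0.858), *CPZ*, a carboxypeptidase gene (1.58), and *VASN*, which encodes a TGFB-binding membrane protein (1.66), and *MYPN* ran from 36.9 CPM to 7.39 CPM in MCF10A and from 1.86 CPM to 5.40 CPM in DCIS.COM.

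The ligands had closer neighbours than *AXL* did. Gaps between replicates enter a distance, and in MCF10A controls the log2 CPM were 1.55 and 0.88 for *AXL*. They were 6.71 and 6.69 for *GAS6* and 5.24 and 5.275 for *PROS1*. How far such gaps, or the wider fold range of *AXL*, set this contrast was not tested. Nearest to *GAS6* were *LTBP2*, a matrix protein gene (distance 0.347), *PAQR7* (0.360), *SNAI2* (0.397), the kinase gene *RPS6KA2* (0.466) and the metalloproteinase gene *MMP28* (0.475). *LTBP2* had mean levels of 121.1 and 104.4 CPM in MCF10A and 25.8 and 11.7 CPM in DCIS.COM. Nearest to *PROS1* were *SDC3*, a heparan sulfate proteoglycan gene (0.295), *CYP1B1* (0.498), the potassium channel gene *KCNMB4* (0.538), *UBL3* (0.550) and *DDAH2* (0.591). *SDC3* had mean levels of 102.9 and 39.6 CPM in MCF10A and 11.98 and 14.7 CPM in DCIS.COM. The distances are a description over 8 libraries that share 4 groups.

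**Figure D5:**
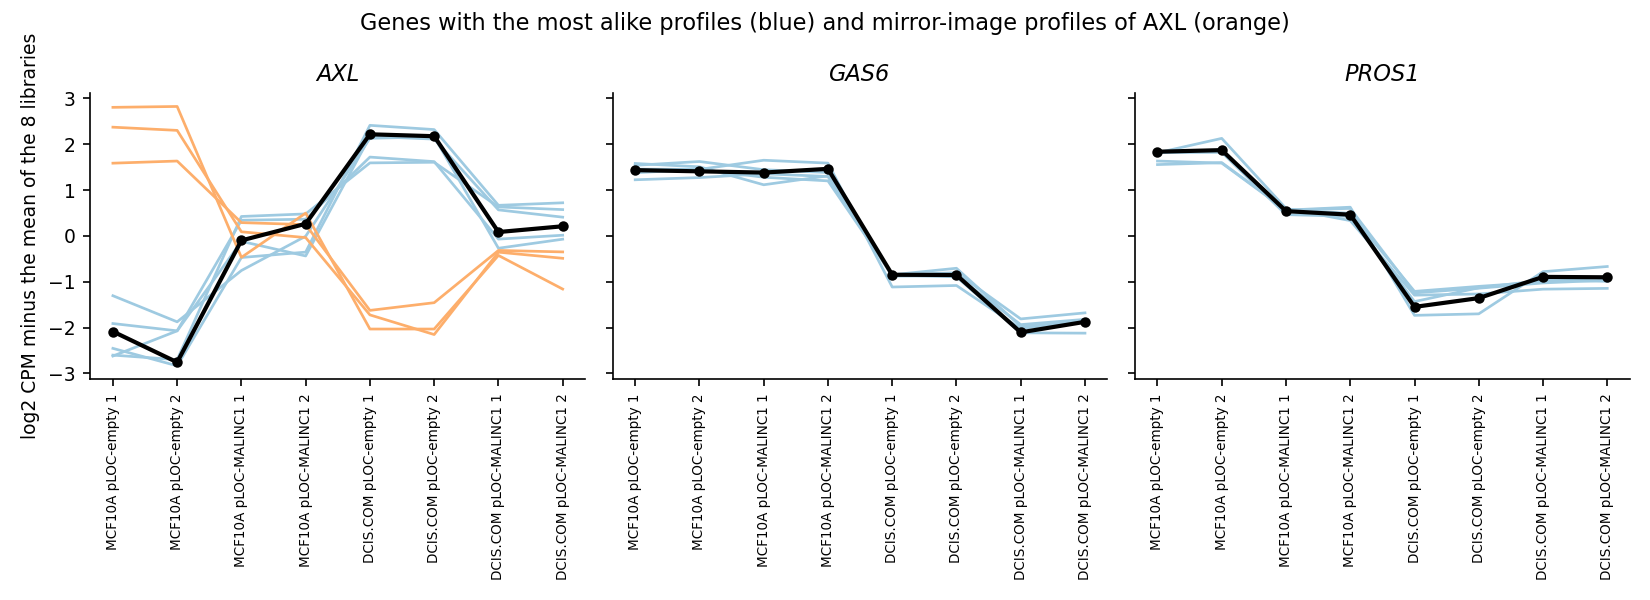
Log2 CPM minus the mean of the 8 libraries for *AXL*, *GAS6* and *PROS1* (black), their 5 closest genes (blue) and the 3 mirror images of *AXL* (orange), in the order of the groups along the x axis. The closest genes of *GAS6* (distances 0.347 to 0.475) lie nearer to it than those of *AXL* (1.15 to 1.45) do. The gap between the MCF10A controls of *AXL* enters its distances.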

How the data were processed

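RNA-seq of 8 libraries of transduced MCF10A and DCIS.COM cells was used, 2 in each of 4 groups taken from the labels. The authors sequenced RNA of high integrity from both ends (76 nt), used Rsubread for alignment to hg19 and featureCounts for read counts of UCSC genes, and scaled these with edgeR. The authors deposited log2 CPM for 13842 genes, and their tool versions and filter are not given in the sources used here. The values held a prior count of 2 reads scaled to the library (0.0713 CPM), and after removal of it 100% of the values were whole reads within 0.05 reads.

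These log2 values went into a linear model in limma 3.58.1 under R 4.3.3 (trend, 4 group means, Benjamini-Hochberg adjustment over all genes, two-sided), with 7.98 prior and 4 residual degrees of freedom, and the steps were tested on simulated data. A DEG had an adjusted p below 0.01 and over 2-fold change. A fold change is on the scale of the deposited log2 CPM, which understates the change of low genes. The rule for named genes took the members, *MALINC1*, up to 4 DEGs of at least 1 CPM per list and comparison with the largest change, the 5 closest genes of *AXL*, *GAS6* and *PROS1* and the 3 mirror images of *AXL*. A few results under it are not reported here. The members and lists were chosen with earlier results of these data known. The comparison of the lines with pLOC-*MALINC1*, the merged-exon length and the neighbouring genes were added after seeing the data. The alternatives were the pseudocount, a filter, quantile scaling, limma-voom, the replicate number as a block, the libraries of a contrast alone and leaving out each library. Coordinates are GRCh37 with GENCODE v44lift37, to which 13035 genes (94.2%) were matched by symbol. Other steps used Python 3.11.15, pandas 2.3.3, numpy 2.4.6 and matplotlib 3.10.9.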

Additional observations from a re-analysis of the deposited data

Results flagged for a closer look

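The response to pLOC-*MALINC1* had opposite directions in MCF10A and DCIS.COM, with every library on its own side of the controls, for *AXL* (difference of the log2 fold changes, DCIS.COM minus MCF10A, -4.55), *TYRO3* (0.84) and *PROS1* (1.91). These members were chosen on the same libraries, so that the calls of the linear model are no independent test of their differences. The share of all genes with such a pattern is not given here, so nothing is read from the number of members that have it. Small changes can meet it too, as for *HNRNPUL1*, the neighbour of *AXL* (log2 fold changes -0.05 in MCF10A and 0.22 in DCIS.COM). Among the genes named from the lists or by position, the limma test of the difference called receptor tyrosine kinases, namely *NTRK2* (-3.40), *ROS1* (-3.38), *EPHA3* (-2.55) and *FGFR1* (1.27). *EPHA3* had 0 reads in all MCF10A libraries. It called factors linked to *AXL* transcription, namely *FOS* (-1.88), *ETS1* (-1.48), *FOSL2* (-1.28), *FOSL1* (-1.23), *JUN* (1.499) and *ZEB2* (1.95). The protease inhibitor *TIMP3* (-3.78), the signaling genes *SOCS3* (-2.67) and *VAV3* (-1.94) and the genes of the uptake of dying cells *ITGB3* (1.42), *ATP8A1* (1.34) and *GULP1* (-1.10) were called as well. By position, *TMEM255B*, the neighbour of *GAS6*, was called (-3.85). Genes named for a profile close to a member, or mirroring *AXL*, are left aside here, since their closeness used the same values.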

How the results depend on the processing

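With log2(CPM + 1) the DEGs numbered 416 in MCF10A (761 in the report) and 368 in DCIS.COM (627), since a larger pseudocount shrinks the changes of low genes. The same pseudocount ended the calls of *CSF1R*, *ITGB3* and *TMEM255B* in MCF10A, *SNAI2* and *TMEM255B* in DCIS.COM, *ATP8A1*, *GULP1* and *ITGB3* for the difference and *GAS6-DT*, *RHBDF2*, *SOCS1* and *TMEM255B* between the lines with pLOC-empty. With limma-voom the differences of *EPHA3* and *ZEB2* had adjusted p values of 0.0127 and 0.0235, and with the MCF10A libraries alone *VAV3* had one of 0.0150 there, so that these calls ended too. The causes were not tested. Over the other alternatives these counts stayed within 1.5 times the main ones. With a library left out, the log2 fold change of *AXL* ranged from 2.17 to 2.84 in MCF10A and from -2.11 to -1.99 in DCIS.COM, and that of *GAS6* in DCIS.COM from -1.25 to -1.02. The log2 difference of *AXL* between the lines with pLOC-*MALINC1* ranged from -0.12 to 0.25. Of 296 values of the members under alternatives, 266 moved by less than the spread between replicates. Much of this count was fixed in advance. The filter, the block, the libraries of a contrast alone and leaving out a library of another group cannot change a fold change here. Leaving out a library of the contrast itself cannot shift it beyond that spread, except for the difference of the responses. The count is therefore no measure of how stable the members were. Of 1918 values of other named genes, 43 lost and 17 gained a call, and none changed direction while called. Deviations of same-numbered libraries correlated at -0.0985 to 0.0411, so the numbers were not taken as pairs, and with the replicate number as a block the DEGs were 759 in MCF10A, 634 in DCIS.COM, 1278 for the difference and 3962 and 3690 between the lines with pLOC-empty and pLOC-*MALINC1*. Precision is lowest for *AXL* in MCF10A controls, at 83 and 40 reads.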

Other observations

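Other genes also had a wide difference between the lines with pLOC-empty and a small one with pLOC-*MALINC1*. Of 761 genes called between the lines with pLOC-empty at a log2 difference over 4 in size, 14 had one under 0.5 with pLOC-*MALINC1*, limits that were set after the values of *AXL* had been seen. Beside *AXL* they included *HBEGF*, with 2.14 and 1.99 CPM in MCF10A and 40.4 and 40.8 CPM in DCIS.COM controls, and 17.9 and 18.6 against 20.7 and 19.9 CPM with pLOC-*MALINC1*. *MYPN* was the only one of the 14 that was lower in DCIS.COM. The others included *ABCB11*, *ADAM8*, *C20orf197*, *CA6*, *CSF2*, *IGFBP7*, *MTRNR2L2*, *PYCARD*, *RASSF10* and *SCGB2A2*. No minimum level was set, so a gene near 0 reads in both lines with pLOC-*MALINC1* also meets the limit. *CA6* and *SCGB2A2* had the same difference of 0.2503 there, which such low counts can give. The levels of these other genes are not given here, so they need not share the measured level of *AXL* and *HBEGF*. Of all calls between the lines, 2821 were made with both vectors, 71.3% of those with pLOC-empty and 76.5% of those with pLOC-*MALINC1*.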
